A study of Mus musculus with 15 samples.

Results

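The heat shock chaperones described here are 10 genes, Hspa1a, Hspa1b, Hspa8, Dnajb1, Dnaja1, Hsph1, Hsp90aa1, Hsp90ab1, Hspe1 and Hsf1, out of 55421 genes counted. They were chosen by symbol, with their levels in these samples already known, so the differences of the members between groups are given as a description without p-values. The recipients were Rag2-/- mice, which have no T or B cells of their own. They received naive donor T cells to induce transfer colitis, and 6 weeks later CD4+ T cells were isolated from spleen and from the lymph nodes of the mesentery (mLN) for RNA-seq. Donors were C57BL/6 mice with both Prkaa1 alleles floxed, either without Cre (PRKAA1fl/fl, WT) or with CD4-Cre (CD4-Cre PRKAA1fl/fl, KO). CD4-Cre deletes Prkaa1, which encodes the AMPKα1 catalytic subunit, in T cells from the CD4+CD8+ thymocyte stage, so donor cells had developed without it, and the floxed alleles and the recipient strain were common to all groups. Mice were in general used at 6 to 8 weeks of age. There were 4 WT spleen, 4 KO spleen, 3 WT mLN (replicates 1, 2 and 4) and 4 KO mLN samples from 1 experiment, each with between 9363940 and 11283439 reads counted on genes. The study describes as many mice per group as a full group has samples, so samples of a group were taken to be separate mice, and p-values measure their spread within this experiment.

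Molecular chaperones hold unfolded proteins and help them fold. HSP70 proteins bind short exposed stretches of a client with the help of J-domain proteins and nucleotide exchange factors, and HSP90 proteins take over clients such as kinases and steroid receptors. Heat, oxidants and other protein-damaging stress release the transcription factor HSF1 from chaperone complexes, and HSF1 then binds heat shock elements, repeats of nGAAn in alternating orientation, before its target genes. T cell activation is also known to raise several chaperones of both families.

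Prkaa1 itself was measured first. Its level was 51.1 ± 3.71 counts per 1000000 reads on genes (CPM) in WT spleen (SD, n = 4) and 20.1 ± 1.38 in KO spleen (SD, n = 4), and 53.3 ± 6.57 in WT mLN (SD, n = 3) against 27.7 ± 5.37 in KO mLN (SD, n = 4). It was lower in every KO sample than in any WT sample, with edgeR adjusted p-values of 7.63e-05 in spleen and 0.0372 in mLN. The 6 CD4+ T cell markers Cd3d, Cd3e, Cd3g, Cd4, Cd28 and Lck summed to 5502 to 6833 CPM in each sample. B cell markers summed to at most 7.32 CPM. Transcripts of the globin genes Hbb-bs and Hba-a1, erythroid markers, were uneven, with a sum of 1356 CPM in WT spleen replicate 3, 642 in WT spleen replicate 4 and 578 in WT mLN replicate 4 against 12.5 to 82.9 in the other samples. Cd8a and Cd8b1 summed to 18.9 to 28.2 CPM in KO mLN and 7.18 to 11.6 in WT mLN. Of the markers of other cell types and T cells that could be tested, 0 of 24 were called between the genotypes in spleen, with 10 at an unadjusted p under 0.05, and 1 of 24 in mLN, the smooth muscle myosin Myh11, with 8 at an unadjusted p under 0.05. Of all genes tested, 2924 of 14254 in spleen and 2253 of 14359 in mLN were at an unadjusted p under 0.05. The 6 monocyte and macrophage markers summed to 117 to 209 CPM in WT spleen and 114 to 324 in KO spleen, and to 48.0 to 202 in WT mLN and 75.8 to 88.3 in KO mLN. Among them Adgre1, Csf1r and Cd68 had log2 fold changes of KO over WT of 1.42, 0.89 and 0.65 in spleen (edgeR adjusted p 0.116, 0.107 and 0.0976). The remaining markers of this list, Cd14, Lyz2 and Itgam, were at 0.84, 0.083 and -0.48 there (edgeR adjusted p 0.393, 0.922 and 0.640), so the list did not move in 1 direction. The 3 neutrophil markers summed to 42.6 to 59.3 CPM in WT mLN and 16.4 to 35.9 in KO mLN, and to 86.5 to 432 in WT spleen and 74.4 to 273 in KO spleen. The part of these cells in the chaperone levels was not tested, and in bulk RNA a change in the share of cells and a change in RNA per cell cannot be told apart.

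Hspa1a and Hspa1b encode the stress-inducible HSP70 and lie next to each other on chromosome 17. RefSeq promoter windows on GRCm38.p6, from 250 bases before to 50 bases after a transcription start, were found for 6 members, Hspa1a, Hspa1b, Dnajb1, Dnaja1, Hsph1 and Hspe1. Each was searched on both strands for 2 facing or opposed heat shock units, GAANNTTC or TTCNNGAA, and for 3 units, GAANNTTCNNGAA or TTCNNGAANNTTC, which contain the shorter letters. No window was found for Hspa8, Hsp90aa1, Hsp90ab1 and Hsf1, so the members could not be compared as a set at these letters. The sequences printed are stretches before the start that hold the letters, with matching units in capitals and 30 bases in all.
Hspa1a (chr17:34972242-34972271, minus strand): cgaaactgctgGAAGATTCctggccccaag
Hspa1b (chr17:34959324-34959353, minus strand): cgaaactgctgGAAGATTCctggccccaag
Dnaja1 (chr4:40722333-40722362, plus strand): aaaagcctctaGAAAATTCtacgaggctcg
Hsph1 (chr5:149636351-149636380, minus strand): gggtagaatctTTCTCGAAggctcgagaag
Hspe1 (chr1:55088053-55088082, plus strand): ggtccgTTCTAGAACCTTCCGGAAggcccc

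The Hspa1a and Hspa1b stretches were the same base for base, and 247 of the 250 bases before their starts were identical (98.8%). Some genes have several starts, and the 6 members had 10 windows. The 2-unit letters were found in at least 1 window of 5 of the 6 members (not Dnajb1), against 17.0% of 27025 genes, and in 6 of the 10 windows, against 15.1% of all 32851 windows. For Dnaja1 only the window printed held them. The 3-unit letters were found in Hspe1, as printed, and in Hsph1 only after the start, against 0.662% of genes. The Dnaja1 stretch lies within an alternative first exon of Dnaja1 in the GENCODE annotation, the Hsph1 stretch reaches into a first exon of Hsph1, and the Hspe1 stretch lies in a first exon of Hspd1, its neighbour on the other strand. Among other chaperone genes, Dnajb6, Chordc1 and Hspd1 held the 3-unit letters. A match of letters is a description and not a binding site.

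The members covered a wide range of abundance. Levels of different genes were compared as CPM per kilobase of exon, averaged over the 15 samples, with exons joined over all transcripts of a gene. Reads that align to several places were left out of the counts, which lowers members that share sequence with other genes. Of the 75-base windows along their transcripts, 42.8% were shared for Hsp90aa1, 14.6% for Hspe1 and 0% for Dnajb1. The order of members close in level is therefore uncertain. Hsp90ab1, the constitutive HSP90, was at 368 and ranked 85 among 39072 genes with a read. Hspa8, the constitutive HSC70, followed at 186. Far below came Dnajb1 at 48.5, Hspe1 at 41.9 and Hsp90aa1 at 34.2, then Dnaja1 at 19.1, Hsph1 and Hsf1 both at 16.7, Hspa1a at 3.69 and Hspa1b at 0.660. Within WT spleen the order was Hsp90ab1, Hspa8, Dnajb1, Hspe1, Hsp90aa1, Hsf1, Dnaja1, Hsph1, Hspa1a and Hspa1b. Neighbours whose ranges of mean ± SD overlapped there were Dnajb1 (34.9 ± 2.80) with Hspe1 (30.2 ± 1.86), Hsp90aa1 (18.9 ± 3.13) with Hsf1 (16.5 ± 1.40), Dnaja1 (13.1 ± 0.795) with Hsph1 (9.05 ± 3.48), and Hspa1a (0.110 ± 0.0687) with Hspa1b (0.0445 ± 0.0342), all in CPM per kilobase (SD, n = 4 each). In KO spleen Dnaja1 (25.0 ± 7.84) and Hsph1 (23.5 ± 12.3) had higher means than Hsf1 (16.8 ± 0.837), within their spread (SD, n = 4). Together the 10 members took 0.158 to 0.497% of reads on genes, lowest in WT spleen replicate 4 and highest in KO mLN replicate 4.

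Hspa1a, the stress-inducible HSP70, had the largest log2 fold change of the members tested in spleen, and the second largest, after Hspa1b, in mLN. In WT spleen it was at 0.523, 0.214, 0.474 and 0.100 CPM in replicates 1 to 4, which is 13 reads over the 4 samples. In KO spleen it was at 2.94, 3.49, 56.3 and 33.9 CPM, or 1048 reads. Every KO sample lay above every WT sample, and the KO samples themselves fell into a low pair (replicates 1 and 2) and a high pair (replicates 3 and 4). The ratio of pooled reads, scaled by the reads on genes, was 74.6 (95% interval 43.4 to 140.6 from an exact binomial interval, which covers counting error only), and the edgeR log2 fold change was 6.18 (SE 1.19).

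In mLN the same gene was at 4.62, 0 and 2.99 CPM in WT replicates 1, 2 and 4 and at 10.8, 9.18, 16.2 and 22.6 in KO replicates 1 to 4. The WT sample without a read allows up to 0.297 CPM, the level of 3 reads. The groups did not overlap here either, at a ratio of pooled reads of 5.69 (4.50 to 7.27) and a log2 fold change of 2.50 (SE 0.72). WT mLN held 80 Hspa1a reads over 3 samples, more than the 13 of WT spleen over 4, but all were in replicates 1 and 4. Leaving out each sample in turn gave log2 fold changes of 5.34 to 6.54 in spleen and 1.92 to 3.28 in mLN.

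Hspa1b, the neighbouring copy, followed the same samples at a lower level. It was at 0.209, 0, 0.190 and 0.100 CPM in WT spleen and at 0.945, 0.894, 9.51 and 4.61 in KO spleen, with replicate 3 highest again. In mLN it was at 0.370, 0 and 0.0997 CPM in WT replicates 1, 2 and 4 and at 1.89, 1.93, 3.17 and 3.84 in KO replicates 1 to 4. The groups did not overlap in either organ. Pooled reads were 172 against 5 in spleen, a ratio of 31.8 (13.4 to 99.3), and 117 against 5 in mLN, a ratio of 16.7 (6.97 to 52.5). In the spleen it was removed by the filter on low counts, and in mLN its log2 fold change was 3.97 (SE 0.77). Leaving out each sample in turn gave 3.42 to 5.46, the highest without WT mLN replicate 1. After group means were removed, Hspa1a and Hspa1b on the log2(CPM + 1) scale varied together with a Pearson r of 0.92 over the 15 samples, which share libraries.

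Hspa1a and Hspa1b could not be separated fully. Of all 75-base windows along the Hspa1a transcript, 61.7% were also found in another gene and 52.7% in Hspa1b, and 55.8% of the Hspa1b windows were found in Hspa1a. Reads that align to several places were left out of the counts, so both genes are undercounted and the ratio of Hspa1a to Hspa1b, 6.09 in KO spleen and 5.44 in KO mLN, is uncertain. Hspa1a also overlaps Gm20481 on the other strand, and whether strand was used in counting is not given in the sources used here.

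**Figure D1:**
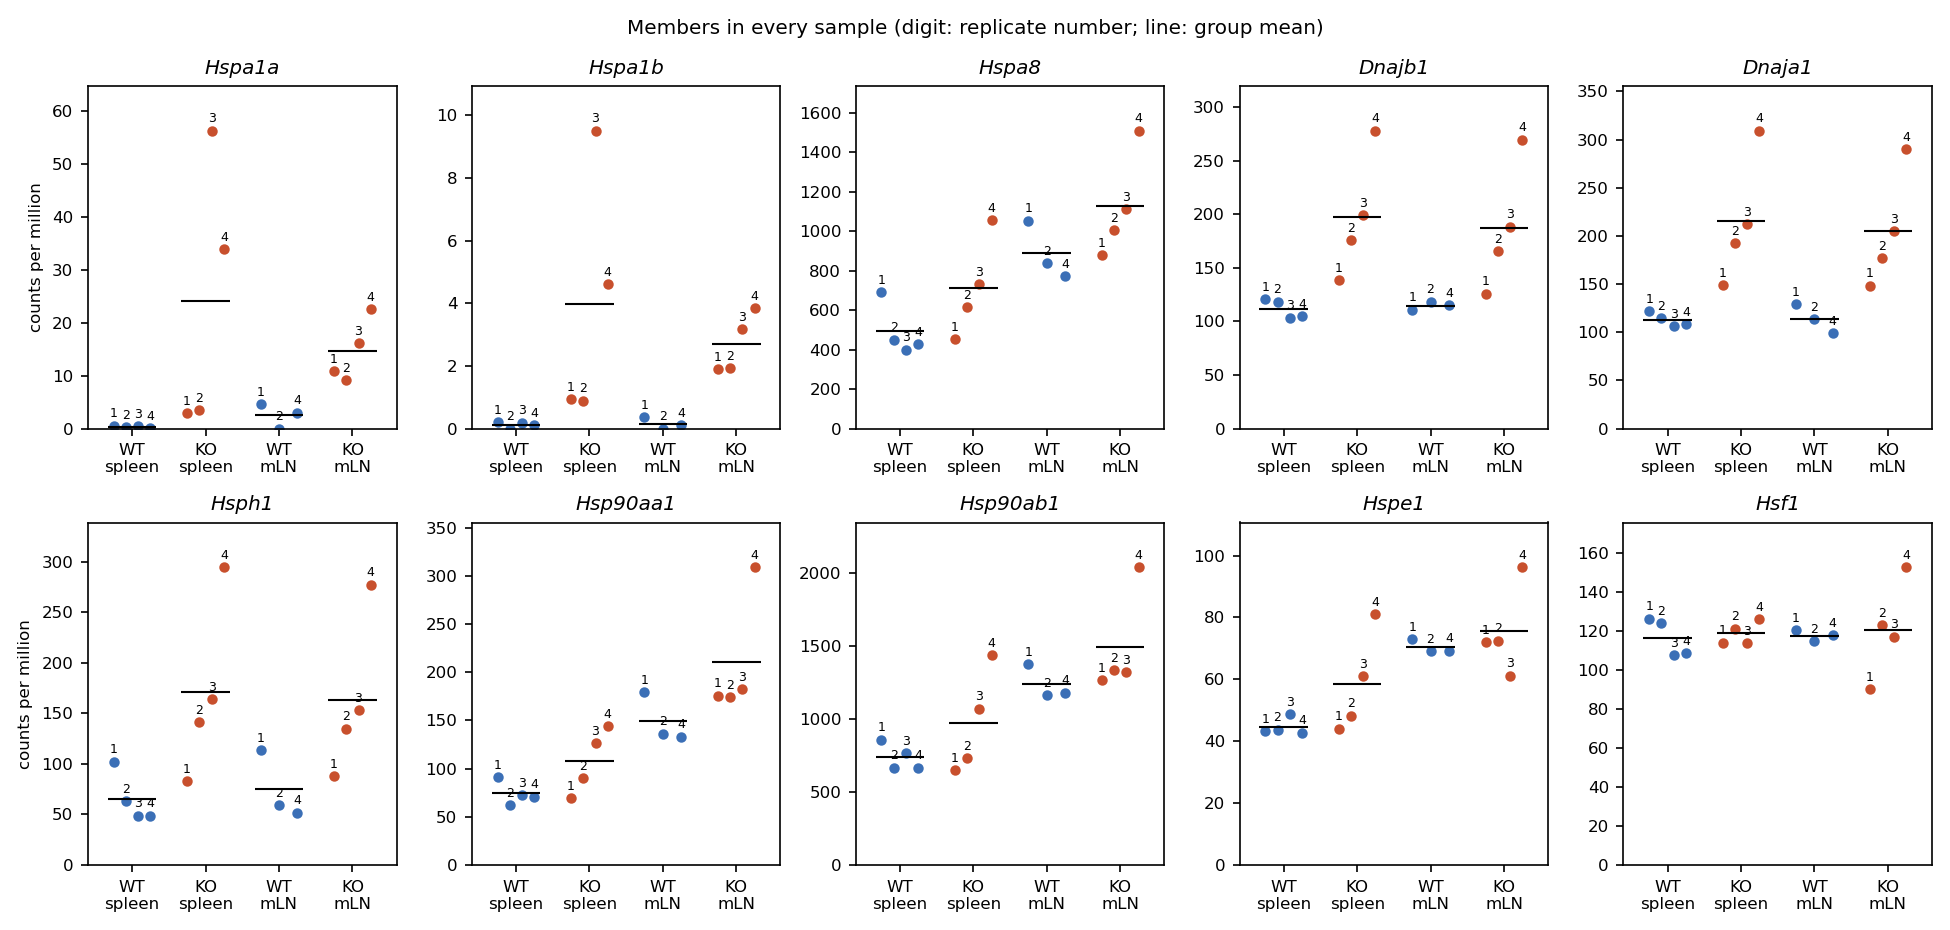
Counts per 1000000 reads on genes (y axes, linear, from 0) of the 10 members in every sample of the 4 groups (x axes), with WT in blue, KO in red, the replicate number at each point and the group mean as a line. Hspa1a and Hspa1b are near 0 in WT spleen, where Hspa1a is at 0.100 to 0.523, and KO replicate 4 is the highest KO sample in both organs for the other 8 members.

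Dnajb1 and Dnaja1 are J-domain proteins, which bring clients to HSP70 and stimulate its ATPase, and both were higher in KO T cells in each organ without overlap. Dnajb1, the main inducible HSP40, was at 120.5, 118, 103 and 105 CPM in WT spleen and at 139, 176, 199 and 278 in KO spleen. In mLN it was at 111, 118 and 115 CPM in WT and at 126, 165, 188 and 269.6 in KO. The WT samples lay close together and the KO samples were spread out above them. The log2 fold changes were 0.84 (SE 0.18) in spleen and 0.69 (SE 0.20) in mLN.

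Dnaja1, another cytosolic HSP40, was at 122, 114, 106 and 108 CPM in WT spleen and at 149, 193, 212 and 309 in KO spleen. In mLN the WT values were 129, 114 and 98.8 CPM and the KO values 148, 177, 205 and 289.8. Again the lowest KO sample was above the highest WT sample in each organ, and the log2 fold changes were 0.96 (SE 0.19) and 0.83 (SE 0.20). Of its 75-base windows, 18.4% were shared with other genes, while those of Dnajb1 were all its own. Dnaja1 also overlaps Smu1 and Gm6297 on the other strand and Mir207 on the same strand.

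Hsph1, the HSP110 that acts as nucleotide exchange factor of HSP70, had the largest log2 fold change after the HSP70 copies and also the largest spread. It was at 102, 63.1, 48.8 and 48.7 CPM in WT spleen and at 83.2, 141, 164 and 295 in KO spleen. In mLN it was at 114, 58.9 and 51.7 CPM in WT and at 87.7, 135, 153 and 277 in KO. The groups overlapped, because WT replicate 1 exceeded KO replicate 1 in both organs. The log2 fold changes were 1.40 (SE 0.36) in spleen and 1.11 (SE 0.36) in mLN, and fell to 0.99 and 0.74 without KO replicate 4 of the organ.

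Hspa8, the constitutive partner of the inducible HSP70, was at 691, 450.3, 401 and 427 CPM in WT spleen and at 454, 614, 733 and 1055 in KO spleen. In mLN it was at 1055, 839 and 772 CPM in WT and at 878, 1007, 1113 and 1510.4 in KO. The groups overlapped in both organs, with WT replicate 1 above KO replicates 1 and 2. The log2 fold changes were 0.56 (SE 0.25) and 0.33 (SE 0.17), and 0.30 and 0.17 without KO replicate 4. A share of 33.0% of its 75-base windows lies in other genes, mostly the pseudogene Gm15459.

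The HSP90 pair overlapped between WT and KO in both organs. Hsp90aa1, the inducible HSP90, was at 91.5, 62.3, 72.8 and 71.0 CPM in WT spleen and at 69.5, 89.8, 127 and 144 in KO spleen, with a log2 fold change of 0.55 (SE 0.22). In mLN it was at 179.6, 136 and 133 CPM in WT and at 176, 174, 183 and 309 in KO, with 0.48 (SE 0.20). KO mLN replicate 4 stood apart from the other 3 KO mLN samples, which overlapped with WT.

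Hsp90ab1, the constitutive form, was at 859, 667, 768 and 668 CPM in WT spleen and at 651, 731, 1072 and 1439.5 in KO spleen. In mLN the WT values were 1377, 1166 and 1183 CPM and the KO values 1269, 1334, 1322 and 2043. The log2 fold changes were 0.41 (SE 0.23) and 0.25 (SE 0.15), and 0.15 and 0.075 without KO replicate 4. For Hsp90aa1, 42.8% of 75-base windows are shared with other genes, against 0.537% for Hsp90ab1.

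Hspe1 encodes the mitochondrial HSP10, the lid of the HSP60 chaperonin. It was at 43.2, 43.7, 48.6 and 42.7 CPM in WT spleen and at 44.1, 48.3, 61.1 and 81.0 in KO spleen, with a log2 fold change of 0.41 (SE 0.18). In mLN it was at 73.0, 69.1 and 69.3 CPM in WT and at 72.0, 72.5, 61.1 and 96.2 in KO, with 0.089 (SE 0.14) and a change of sign, to -0.039, without KO replicate 4. It overlaps Hspd1 on the other strand.

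Hsf1, the transcription factor of the heat shock response, showed the smallest differences between the genotypes of all members in both organs. It was at 127, 124, 108 and 109 CPM in WT spleen, 114, 121, 114 and 126 in KO spleen, 120.5, 115 and 118 in WT mLN and 90.2, 123, 117 and 153 in KO mLN. WT and KO overlapped fully, with log2 fold changes of 0.042 (SE 0.074) in spleen and 0.025 (SE 0.14) in mLN. These are levels of its mRNA, and the activity of the protein was not measured.

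**Figure D2:**
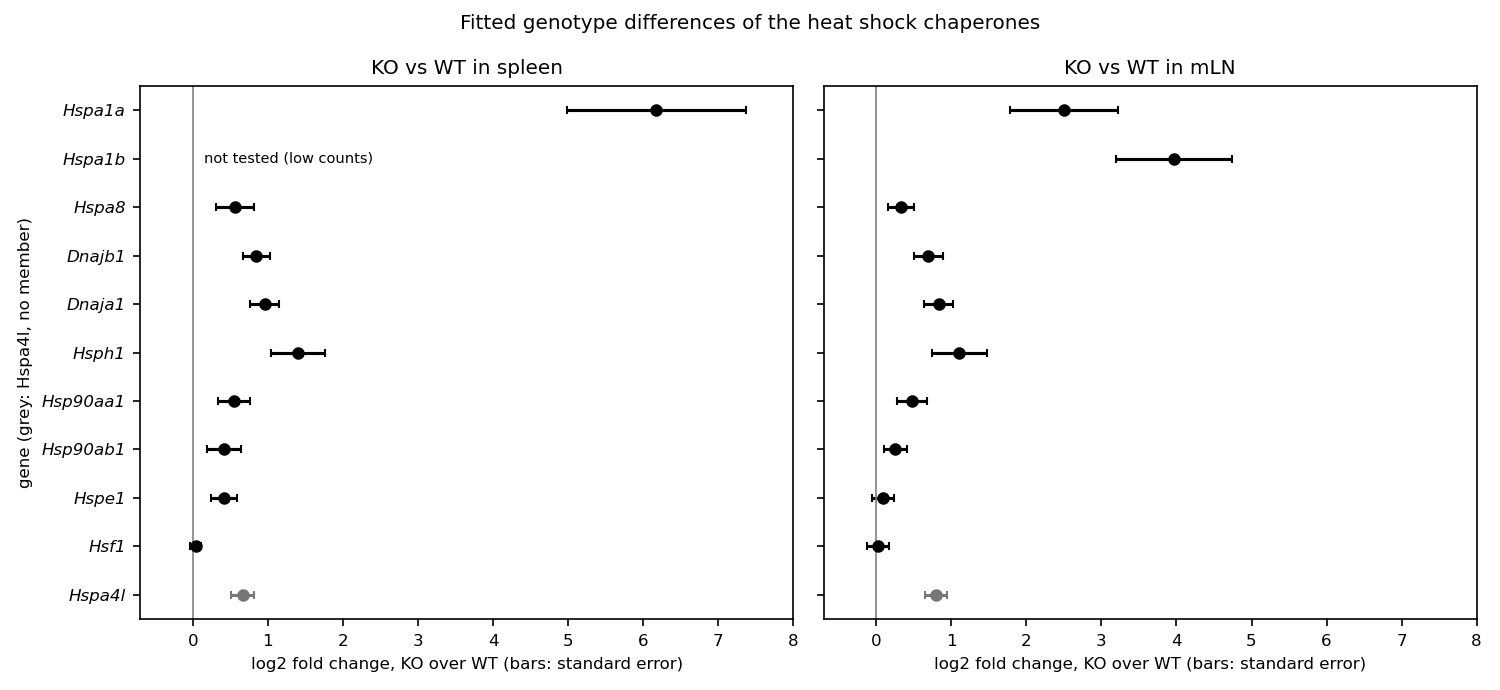
Fitted log2 fold changes of KO over WT (x axes) in spleen (left) and mLN (right) for the 10 members in black and Hspa4l, which is no member, in grey, with bars for the standard error. Hspa1a is farthest to the right in spleen at 6.18 and Hspa1b in mLN at 3.97, and Hsf1 lies at 0.042 and 0.025.

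All 9 members tested in spleen and all 10 in mLN had positive log2 fold changes, although those of Hspe1 and Hsf1 in mLN turned negative without KO replicate 4. Their median was 0.56 in spleen and 0.59 in mLN, against a median near 0 over all genes tested. At an adjusted p under 0.05 by edgeR, 2 of the 9 members tested in spleen were called higher in KO (Hspa1a and Dnaja1), beside 0.547% of 14254 genes, and 0 of 10 in mLN, beside 0.348% of 14359 genes. At an unadjusted p under 0.05, 2924 genes in spleen and 2253 in mLN passed. DESeq2 called 4 members in spleen (Hspa1a, Dnaja1, Dnajb1 and Hsph1), where it called 840 genes in all, against 185 by edgeR. In mLN it called 3 members (Hspa1b, Dnajb1 and Dnaja1) and 588 genes in all, against 92 by edgeR. Without any 1 sample, 0 to 3 members were called in spleen and 0 to 1 in mLN, so no call among the members stood in all fits. Hspa1a, Hspa1b, Dnajb1 and Dnaja1, 4 of the 10 members, had every KO sample above every WT sample in both organs, where 5.68% of genes did so in spleen and 7.49% in mLN. Since the members were chosen with these contrasts known, nothing is read from these counts.

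The 3 samples rich in erythroid transcripts were all WT. Without WT spleen replicate 3 or 4, or without WT mLN replicate 4, log2 fold changes of all members tested were positive, and that of Dnaja1 was 0.94, 0.93 and 0.74. Without both WT spleen replicates 3 and 4, a choice made after the markers had been seen, they were 6.02 for Hspa1a, 1.07 for Hsph1, 0.90 for Dnaja1 and 0.76 for Dnajb1, between 0.35 and 0.51 for Hspa8, Hsp90aa1, Hsp90ab1 and Hspe1, and -0.052 for Hsf1. With 2 WT samples left, 0 members were called. Leaving out any single sample gave log2 fold changes of Dnaja1 from 0.72 to 1.10 in spleen and from 0.63 to 0.95 in mLN.

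The members moved together from sample to sample within a genotype. KO replicate 4 was the highest KO sample in both spleen and mLN for 8 of the 10 members, all but Hspa1a and Hspa1b, where 7.88% of 15438 genes had it highest in both. WT replicate 1 was the highest WT sample in both organs for 8 of 10 members, all but Dnajb1 and Hspe1, where 8.25% of genes did. Hspa8, Dnajb1, Dnaja1 and Hsph1 ranked the KO samples as 1, 2, 3 and 4 from low to high in spleen and again in mLN. The same KO order in both organs, whichever order it was, was found for 6.06% of genes. In WT, where 3 numbers were shared by the organs, 5 of the 10 members kept their order, against 27.6% of genes. The labels do not say whether samples of the same number came from the same mouse. In these genes the level in mLN tracked the level in spleen of the same number, as for Hsph1 in KO, at 83.2 and 87.7, 141 and 135, 164 and 153, and 295 and 277 CPM.

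**Figure D3:**
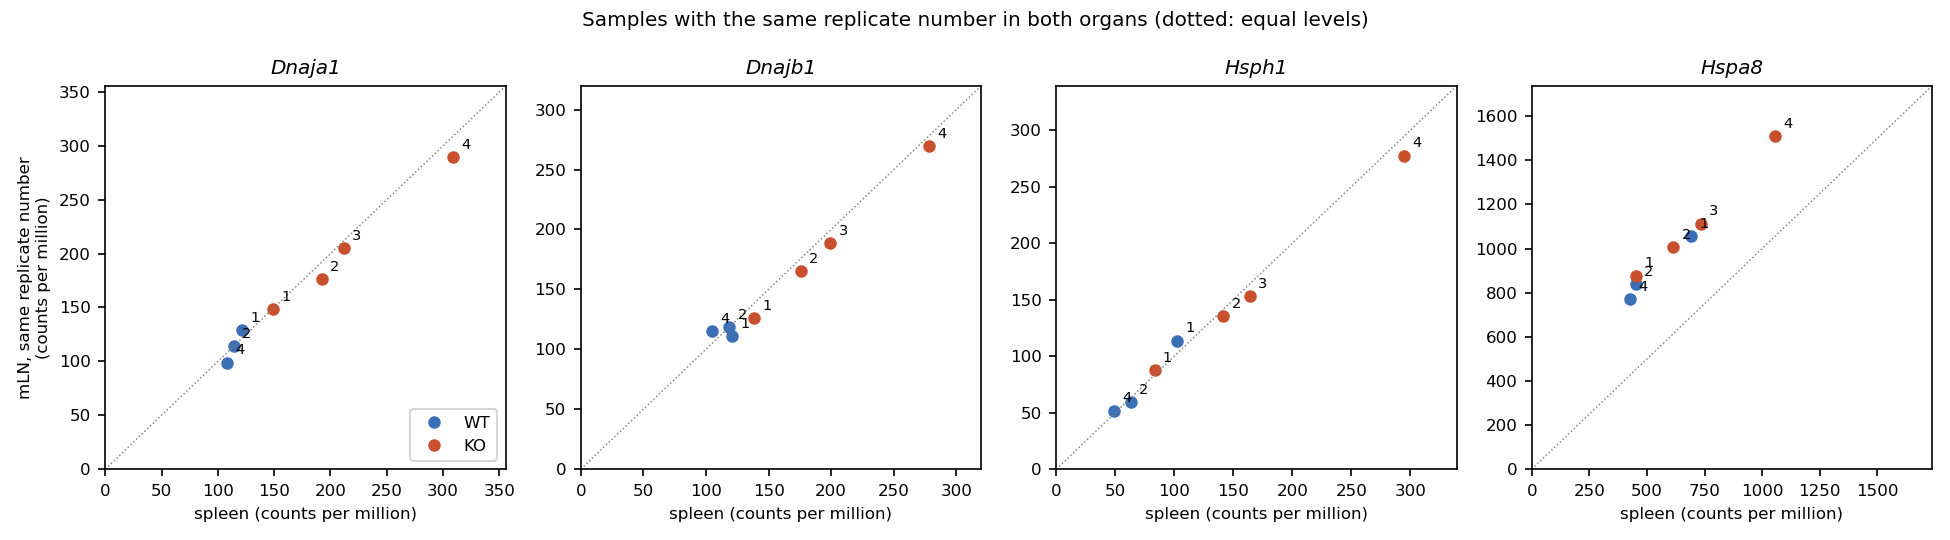
CPM in mLN (y axes) against CPM in spleen (x axes) of samples with the same genotype and replicate number, for Dnaja1, Dnajb1, Hsph1 and Hspa8, with WT in blue, KO in red and a dotted line of equal levels. Dnaja1, Dnajb1 and Hsph1 lie along the line, Hspa8 lies above it, and KO replicate 4 is the highest KO sample on both axes.

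After group means were removed, the closest pairs of members over the 15 samples were Hspa8 with Hsph1 (Pearson r 0.97), Hsp90aa1 with Hsp90ab1 (0.95) and Dnaja1 with Dnajb1 (0.95). Hspa1a was less close to the other members than to Hspa1b, with r from 0.21 (Hsf1) to 0.78 (Hsp90ab1). All values come from the same libraries and are a description.

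**Figure D4:**
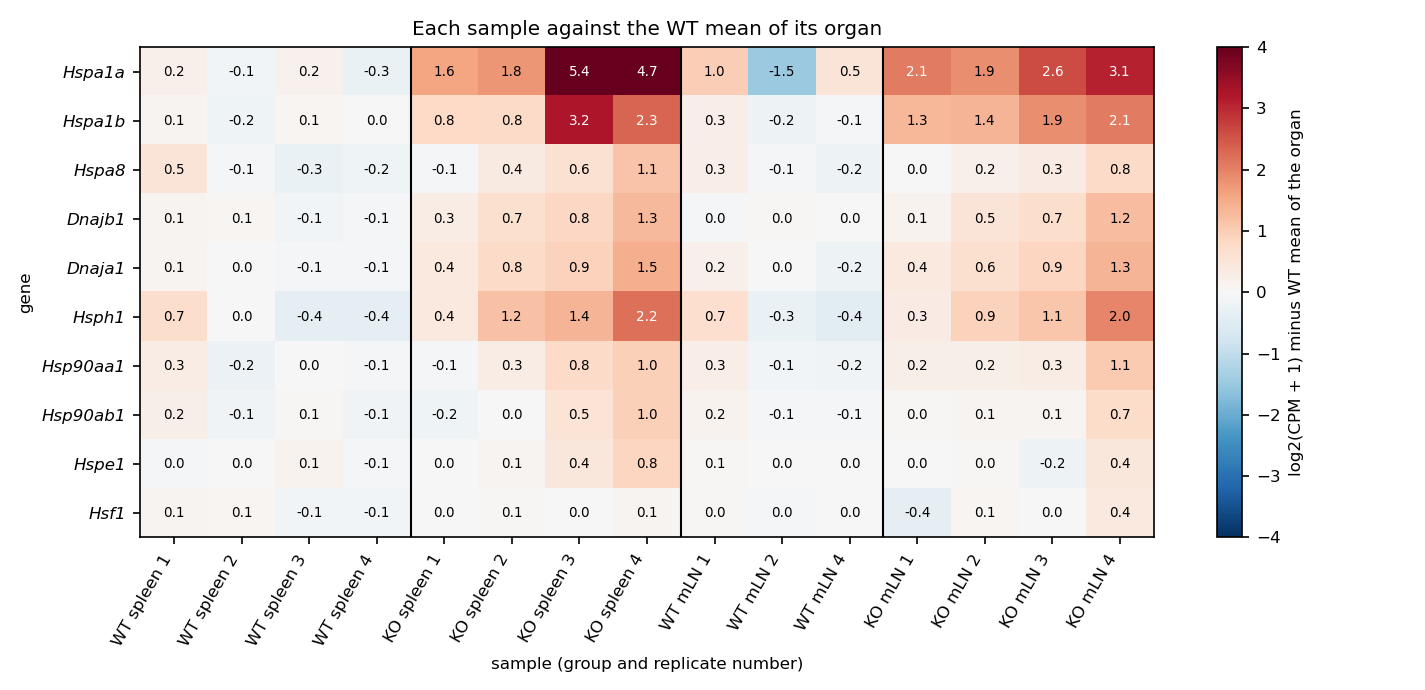
Log2(CPM + 1) of each member (rows) in each sample (columns) minus the mean of the WT samples of the same organ, in red above and in blue below that mean, with the difference printed in each cell and the colour scale ending at 4 and -4. KO replicates 3 and 4 carry the largest differences in spleen, 5.4 and 4.7 for Hspa1a, and the Hsf1 row stays within 0.4 of 0.

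Genes outside the members with the most similar pattern to Hspa1a were sought among 9258 genes with a mean of at least 10 CPM, by Pearson r of log2(CPM + 1) over all 15 samples. The 8 nearest were Ywhae (r 0.89), Pfdn4 (0.88), Hspa4l (0.88), Vps29 (0.86), Eed (0.86), Dynll1 (0.86), Chordc1 (0.85) and Sept7 (0.85). Among these, Hspa4l is a further HSP110 relative, Pfdn4 a subunit of prefoldin, which passes nascent actin and tubulin to the chaperonin, and Chordc1 an HSP90 cochaperone. With group means removed, r was 0.81 for Pfdn4, 0.73 for Ywhae, 0.71 for Hspa4l and 0.57 for Chordc1.

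The other chaperone genes, 78 genes in 7 lists, were tested with the same fits. Between WT and KO spleen 0 of the 65 tested genes were called by edgeR, beside 1.3% of all genes tested. At an unadjusted p under 0.05 there were 18 of the 65, beside 2924 of all 14254 genes tested. DESeq2 called 5, where it called 840 genes in all. Of the 65, 47 had positive and 18 negative log2 fold changes, with a median of 0.11. Among the HSP90 cochaperones 6 of 12 were at an unadjusted p under 0.05 in spleen, and Chordc1, named here after its values were seen, was at 123 ± 21.4 CPM in WT spleen and 205 ± 55.0 in KO spleen (SD, n = 4 each; log2 fold change 0.76, SE 0.19; edgeR adjusted p 0.0712). All 8 subunits of the cytosolic chaperonin CCT, which folds actin and tubulin, had positive log2 fold changes in both organs, and none was called.

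In mLN 1 of the 65 other chaperone genes was called, beside 0.641% of all genes tested. It was Hspa4l, at 46.3, 44.2 and 44.0 CPM in WT and 67.6, 62.7, 86.3 and 97.5 in KO, so that the groups did not overlap. The means were 44.9 ± 1.27 (SD, n = 3) and 78.5 ± 16.2 (SD, n = 4), with a log2 fold change of 0.80 (SE 0.15; edgeR adjusted p 0.0479). The call was lost in 6 of the 7 fits without 1 sample, at adjusted p-values up to 0.183. In spleen Hspa4l was at 47.5 ± 5.82 and 74.4 ± 15.6 CPM (SD, n = 4 each; log2 fold change 0.66, SE 0.16; edgeR adjusted p 0.0663). In mLN 40 of the 65 had positive and 25 negative log2 fold changes, with a median of 0.050. At an unadjusted p under 0.05 there were 10 of the 65, beside 2253 of all 14359 genes tested, a similar share.

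The rank of the samples was also counted in these lists, which like the members were chosen with earlier results of these data known. KO replicate 4 was the highest KO sample in both organs for 8 of 12 HSP90 cochaperones (Stip1, Ahsa1, Ahsa2, Ptges3, Fkbp4, Ppid, Chordc1 and Cacybp), for 6 of 8 CCT subunits and for 6 of 13 chaperones of the endoplasmic reticulum and mitochondria. It was so for 2 of 13 HSP70 relatives and cofactors, 1 of 13 J-domain proteins, 0 of 3 small heat shock proteins and 1 of 3 heat shock factors with their binding protein. Over the 7 lists this came to 24 of 65 genes, or 36.9%, against 7.88% of all genes. WT replicate 1 was highest in both organs for 22 of 65 (33.8%), against 8.25% of all genes.

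Immediate early genes, which respond within minutes to stimulation and to tissue handling, were examined as a separate list of 14 genes. Fos and Fosb, which encode subunits of the AP-1 transcription factor, were higher in KO spleen. Fos rose from 40.8 ± 16.9 CPM in WT to 148 ± 28.5 in KO (SD, n = 4 each; log2 fold change 1.88, SE 0.26; edgeR adjusted p 0.0133). Fosb rose from 6.78 ± 3.66 to 28.2 ± 5.48 CPM (log2 fold change 2.08, SE 0.33; edgeR adjusted p 0.0276). Without 1 sample, Fosb lost its call in 5 of 8 fits, at adjusted p-values up to 0.0762, and Fos in 1 of 8, at 0.0559. Fos was at 180.0, 151, 151 and 111 CPM in KO spleen replicates 1 to 4.

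In mLN Junb, a further AP-1 subunit, fell by 0.87 on the log2 scale (SE 0.14; edgeR adjusted p 0.0326), from 566 ± 128 CPM in WT (SD, n = 3) to 311 ± 31.3 in KO (SD, n = 4), and lost its call in 4 of the 7 fits without 1 sample, at adjusted p-values up to 0.106. Ier2 fell by 0.50 (SE 0.095; edgeR adjusted p 0.0492), from 289 ± 24.1 to 206 ± 18.6 CPM, and lost its call in all 7 fits without 1 sample. The 14 genes summed to 2116 to 2842 CPM in WT spleen, 2480 to 2613 in KO spleen, 1801 to 2426 in WT mLN and 1498 to 1725 in KO mLN. The part of sample handling in the chaperone levels was not tested.

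Between the organs in WT T cells, the 8 members tested fell into 2 sets by overlap. Hspa1a and Hspa1b were removed from this comparison by the filter on low counts. Hspa8, Hsp90aa1, Hsp90ab1 and Hspe1 were higher in mLN than in spleen in WT T cells without overlap, where 13.3% of genes were. Hsp90aa1 was at 74.4 ± 12.3 CPM in WT spleen (SD, n = 4) and 149.7 ± 25.9 in WT mLN (SD, n = 3), a log2 fold change of 1.05 (SE 0.15). For Hspa8, Hsp90ab1 and Hspe1 it was 0.89 (SE 0.19), 0.78 (SE 0.12) and 0.70 (SE 0.090). Samples were not paired by number in the fits between the organs. Dnajb1, Dnaja1, Hsph1 and Hsf1 overlapped between the organs, with log2 fold changes of 0.077, 0.056, 0.23 and 0.051, of which those of Dnaja1 and Hsph1 turned negative without WT mLN replicate 1. All 4 of the first set were called, out of 8 members tested, beside 9.7% of 14515 genes called higher. The set was defined by non-overlap in these same samples, so its calls are no separate support for it.

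In KO T cells the same 4 genes again had the larger values in mLN, at log2 fold changes of 0.96 for Hsp90aa1 (SE 0.24), 0.65 for Hspa8 (SE 0.23), 0.61 for Hsp90ab1 (SE 0.24) and 0.36 for Hspe1 (SE 0.19). Only Hsp90aa1 did not overlap, 1 of 10 members, where 13.3% of genes were higher in mLN without overlap. It alone was called in this unpaired fit, beside 11.4% of 14240 genes called higher. Dnajb1, Dnaja1 and Hsph1 stood at -0.086, -0.080 and -0.077 and turned positive without KO spleen replicate 4, and Hspa1a and Hspa1b at -0.74 (SE 0.74) and -0.57 (SE 0.65), both of which turned positive without KO spleen replicate 3. The members were chosen with their levels known, and nothing is read from their counts between the organs. Markers of other cells also differed between the organs. In WT mLN the neutrophil genes S100a8 and S100a9 were lower by log2 fold changes of -2.18 and -2.17 (edgeR adjusted p 0.0131 and 0.0140) and the collagen gene Col1a1 by -1.90 (0.0361). In KO mLN Cd8a was higher, at 4.43 (edgeR adjusted p 3.18e-05), and Lyz2, Csf1r, Adgre1, S100a8 and S100a9 were lower, at -1.24 to -2.51. Itgax, Myh11 and Pecam1 were also called higher in KO mLN and Xcr1 lower. In all, 4 of 25 markers tested were called between the organs in WT and 13 of 25 in KO. These counts include CD4+ T cell markers, Cd3d in both genotypes and also Cd3e and Cd28 in KO. The part of other cells in the chaperone levels was not tested.

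**Figure D5:**
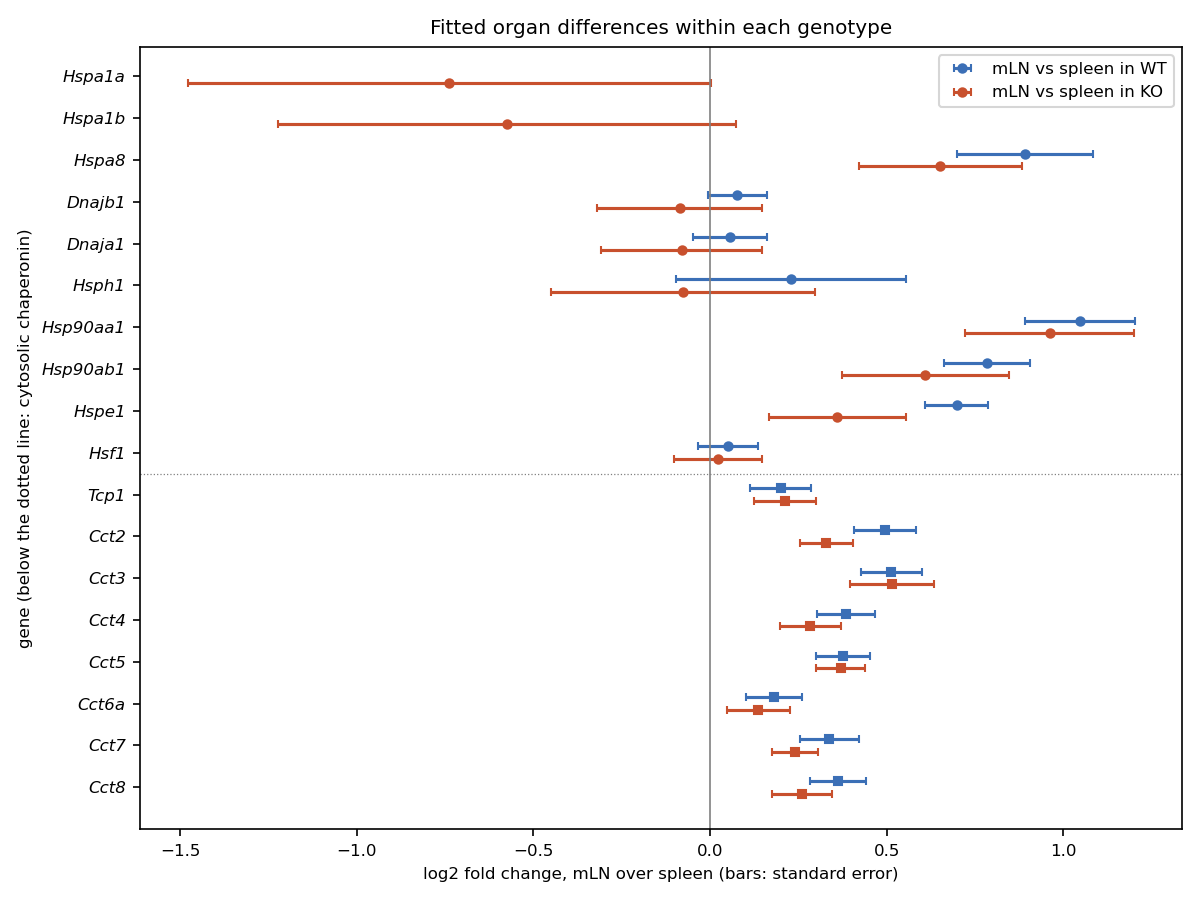
Fitted log2 fold changes of mLN over spleen (x axis) in WT (blue) and KO (red) for the members tested (circles) and the 8 CCT subunits (squares), with bars for the standard error. Hspa8, Hsp90aa1, Hsp90ab1, Hspe1 and the CCT subunits lie to the right of 0 in both genotypes, and Dnajb1, Dnaja1, Hsph1 and Hsf1 lie near it, from -0.086 to 0.23.

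As a whole, the other chaperones were called between the organs at shares a little above those of all genes. In WT 14 of 65 tested genes were called higher and 3 lower in mLN, 26.2% in all, beside 20.5% of all genes tested, and in KO 12 of 64 were called higher and 6 lower, 28.1% beside 25.3%. Of the 8 CCT subunits, 6 were called higher in mLN in WT and 6 in KO, at log2 fold changes of 0.51 for Cct3, 0.50 for Cct2 and 0.38 for Cct5 in WT (edgeR adjusted p 0.00403, 0.00531 and 0.0093) and 0.52, 0.33 and 0.37 in KO (0.00840, 0.00862 and 0.00262). Bag1, a nucleotide exchange factor of HSP70, rose by 0.88 in WT (edgeR adjusted p 0.00155) and 0.55 in KO (0.00242). Dnajc2, a ribosome-associated J-domain protein, rose by 0.46 in WT (edgeR adjusted p 0.00334) and 0.33 in KO (0.00582).

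Hyou1, an HSP110 relative of the endoplasmic reticulum, went the other way, from 47.1 ± 9.68 CPM in WT spleen to 18.5 ± 3.56 in WT mLN and from 57.5 ± 8.83 to 14.5 ± 1.07 in KO. In WT it fell by 1.31 on the log2 scale (edgeR adjusted p 0.00296), and Ptges3, the HSP90 cochaperone p23, and Bag4 fell by 0.45 and 0.37 (edgeR adjusted p 0.0115 and 0.0187). Bag4 lost its call in 2 of 7 fits without 1 sample, at adjusted p-values up to 0.0601. In KO 7 of 13 immediate early genes fell in mLN, beside 13.9% of all genes called lower, among them Fosb, Jun, Egr1 and Junb by 3.13, 2.08, 1.08 and 1.04.

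Whether the genotype difference itself differed between the organs was tested as an interaction over all 15 samples. All 10 members had negative estimates, that is smaller KO to WT differences in mLN than in spleen, but 8 of these were smaller than their standard error. The same 8, all but Hspa1a and Hspe1, turned positive in at least 1 of the fits without 1 sample. Hspa1a was at -3.69 (SE 1.54) and the other 9 between -0.92 (Hspa1b, SE 1.56) and -0.019 (Hsf1). By edgeR 0 of 15438 genes were called, with 652 at an unadjusted p under 0.05, and DESeq2 called 4, so 0 of 10 members stood beside a background of 0%. Among the other lists the smallest p-values belonged to the immediate early genes Fos (-2.64, SE 0.60; edgeR adjusted p 0.825), Fosb (-2.23) and Zfp36 (-0.52).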

How the data were processed

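CD4+ T cells of 15 samples were profiled with a low-input RNA library kit, and samples were grouped by the genotype and organ in their labels. The authors deposited raw counts of reads per gene, made with STAR 2.6.1a on GRCm38, and the submitters' processing notes also name bcl2fastq 2.19.1.403, RSEM and DESeq2 1.22.2. Multimapping reads were outside the counts, 7.7 to 9.44% of all reads. Of uniquely aligned reads, 58.4 to 63.4% in a sample lay on no gene. Counts carry no molecular identifiers. Of 55421 genes, 55240 had a symbol in GENCODE M21, on the same build.

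Each comparison was fitted with edgeR 4.0.16 (R 4.3.3), using filterByExpr, TMM, the quasi-likelihood test and Benjamini-Hochberg adjustment over all genes tested, at 0.05. Alternatives were DESeq2 1.42.0, other scalings and filters, a replicate block, a fit of all samples and each sample left out. The fits were tested on simulated data. The members and gene lists were chosen with earlier results of these data known. From the other lists, up to 5 called genes per direction and comparison with the smallest p were named, or 3 where none was called. Same-numbered WT spleen and mLN samples deviated together (r 0.27 to 0.31), as pairs would, but the fits reported were not paired. The replicate block, which pairs them, changed no count of calls between the WT organs by over 1.5 times. 1 marker gene is not reported here.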

Additional observations from a re-analysis of the deposited data

Results flagged for a closer look

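In 3 of 30 groups of 4 samples, 1 sample lay far from the other 3 by Dixon's test at 95%, where chance gives about 1 in 20 groups. Hsp90aa1 in KO mLN was at 309 CPM in replicate 4, with the other 3 samples at 174 to 183. Hsp90ab1 in KO mLN was at 2043 CPM in the same replicate, with the others at 1269 to 1334. Hspe1 in WT spleen was at 48.6 CPM in replicate 3, with the others at 42.7 to 43.7.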

How the results depend on the processing

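Signs of fold changes were mostly kept, while counts of calls varied, and the 2 are unlike measures. Member log2 fold changes kept their sign in 715 of 750 alternative values, and those of the named genes in 399 of 399. The named genes were picked by the smallest p in the same data, so their signs are no separate check. No called value reversed. In spleen, 185 genes, 0 other chaperones and 2 members were called, against 840, 5 and 4 with DESeq2, 1422, 11 and 9 without a filter, and 85 genes with all 15 samples in one fit. Requiring 10 counts in every sample left 1 member, and without both erythroid-rich WT samples 119 genes and 0 members were called. In mLN, 92 genes, 1 other chaperone and 0 members were called, against 588, 3 and 3 with DESeq2, 913, 6 and 7 without a filter, and 500 genes and 1 member with all samples in one fit. For mLN against spleen in KO, 1 member became 5 without a filter and 3 with all samples. For the interaction, 0 genes became 4 with DESeq2 and 112 without a filter, which called 1 member. The causes were not tested.

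With a replicate block, calls went to 17 genes and 1 member in spleen, to 1 gene and 0 other chaperones in mLN, to 4 members for the organs in KO and to 3 genes for the interaction. Same-numbered samples correlated at -0.21 to 0.15 between WT and KO spleen, -0.061 to 0.025 between WT and KO mLN and 0.026 to 0.26 between KO spleen and KO mLN, so the numbers were not taken as pairs there.

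Without 1 sample, calls ranged from 12 (without KO spleen replicate 2) to 324 genes (without WT spleen replicate 3), 0 to 0 other chaperones and 0 to 3 members in spleen. They ranged from 4 (without WT mLN replicate 4) to 117 genes, 0 to 1 other chaperones and 0 to 1 members in mLN, from 1816 (without WT spleen replicate 1) to 2780 genes, 13 to 16 and 4 to 5 in WT between organs, from 2631 to 3669 genes, 10 to 21 and 1 to 4 in KO, and stayed at 0 for the interaction. Hspa1a and Dnaja1 in spleen each lost their call in 7 of 8 such fits. With 3 or 4 samples a group and few reads in WT, the size of the Hspa1a and Hspa1b differences is imprecise.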
